A study of Mus musculus with 16 samples.

Results

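The polyol, fructose and osmolyte genes form a set of 9 genes chosen by name: Akr1b3, Akr1b8, Sord, Khk, Miox, Slc5a3, Slc6a6, Slc6a12 and Nfat5. All 9 were found among the 24722 genes of the glomerular table and the 34264 genes of the cortex table, and among the 19014 genes that could be joined between them. RNA had been sequenced from glomeruli, the capillary tufts that filter blood, and from renal cortex of wild-type (WT) mice aged 24 weeks. In each tissue 4 libraries came from control mice and 4 from mice of an HFD/STZ diabetes model, which joins high-fat feeding with streptozotocin, a toxin that kills insulin-secreting beta cells. All 16 libraries carried the same batch label, batch 1. Feeding, toxin and diabetic state cannot be told apart in this design, so "diabetes" is used below for their joint effect. The strain, the sex, the diet of the controls and the way glomeruli were isolated go unmentioned in the labels used here, which also do not say that each library came from an animal of its own. If libraries share animals, the spread behind the p-values may be technical.

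The polyol pathway turns glucose into fructose in 2 steps. Aldose reductase reduces glucose to sorbitol at the cost of NADPH, and sorbitol dehydrogenase oxidises sorbitol to fructose. Ketohexokinase then phosphorylates fructose, mainly in the proximal tubule in the kidney. Sorbitol also belongs to the organic osmolytes, small solutes such as myo-inositol, taurine and betaine that cells accumulate when their surroundings are hypertonic, as in the renal medulla. The transcription factor NFAT5 (TonEBP) is known to drive aldose reductase and the osmolyte transporters under hypertonic stress, and flux through aldose reductase is a long-studied response of the diabetic kidney to high glucose.

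The depth of control glomerular libraries ran from 40001932 to 41876031 counts, and that of diabetic ones from 36339294 to 40696477. Cortex libraries were deeper, with 57473100 to 69947387 counts for controls and 60628981 to 72352656 for diabetic mice. Glomerular control libraries 3 and 4 were nearly the same library, as were diabetic libraries 1 and 4 (chi-square per gene 2.76 and 6.69, against at least 45.7 and 66.2 for other pairs of their groups). Each of these pairs was summed, which left 3 control and 3 diabetic glomerular samples (called 1, 2 and 3+4, and 1+4, 2 and 3). Levels are CPM (counts per 1e6 of TMM-scaled library size), log2 fold changes are diabetic against control ± SE, and a gene was called at an adjusted p under 0.05 (quasi-likelihood test of edgeR, p-values adjusted by Benjamini and Hochberg over all genes tested). The labelled tissues bore their markers: all 11 podocyte markers were called higher in control glomeruli than in control cortex, and all 20 proximal tubule markers lower. Some libraries stood apart within their group. Summed CPM of the 20 proximal tubule markers was 141 to 182 in control glomeruli but 1800 and 894 in diabetic samples 1+4 and 3, with 239 in diabetic sample 2. Control cortex library 3 had 273.9 CPM of adipocyte markers and control cortex library 4 had 282 CPM of medulla and thin limb markers, above every other cortex library. Results that rest on these libraries are given with and without them. Without diabetic libraries 1, 3 and 4 only diabetic sample 2 was left against 3 controls. Such a fit has little power, and a call lost in it at a similar value says little.

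In diabetic glomeruli 4 of the 9 genes were called higher (Akr1b3, Akr1b8, Khk and Miox) and 1 was called lower (Slc6a6), while Sord, Slc5a3, Slc6a12 and Nfat5 did not pass. Of all 15238 genes tested there, 19.4% were called higher and 18.2% lower. Higher calls were 51.6% of all calls there, and 72.55% with library totals in place of TMM scaling, which moved the median of all genes up by 0.19. Control and diabetic samples did not overlap for 5 of the 9 genes, against 54.2% of all genes tested. The median log2 fold change of the 9 was 0.95, beside 0.01 for all genes tested, and single values ran from -3.32 to 2.92. That median was the value of Sord, which was not called, and without diabetic libraries 1, 3 and 4 the median of the 9 was 0.23. The calls on Akr1b3, Akr1b8 and Slc6a6 held whichever library was left out. Those on Khk and Miox were lost when any of several single samples was left out, and rested on the diabetic samples with tubule markers.

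**Figure D1:**
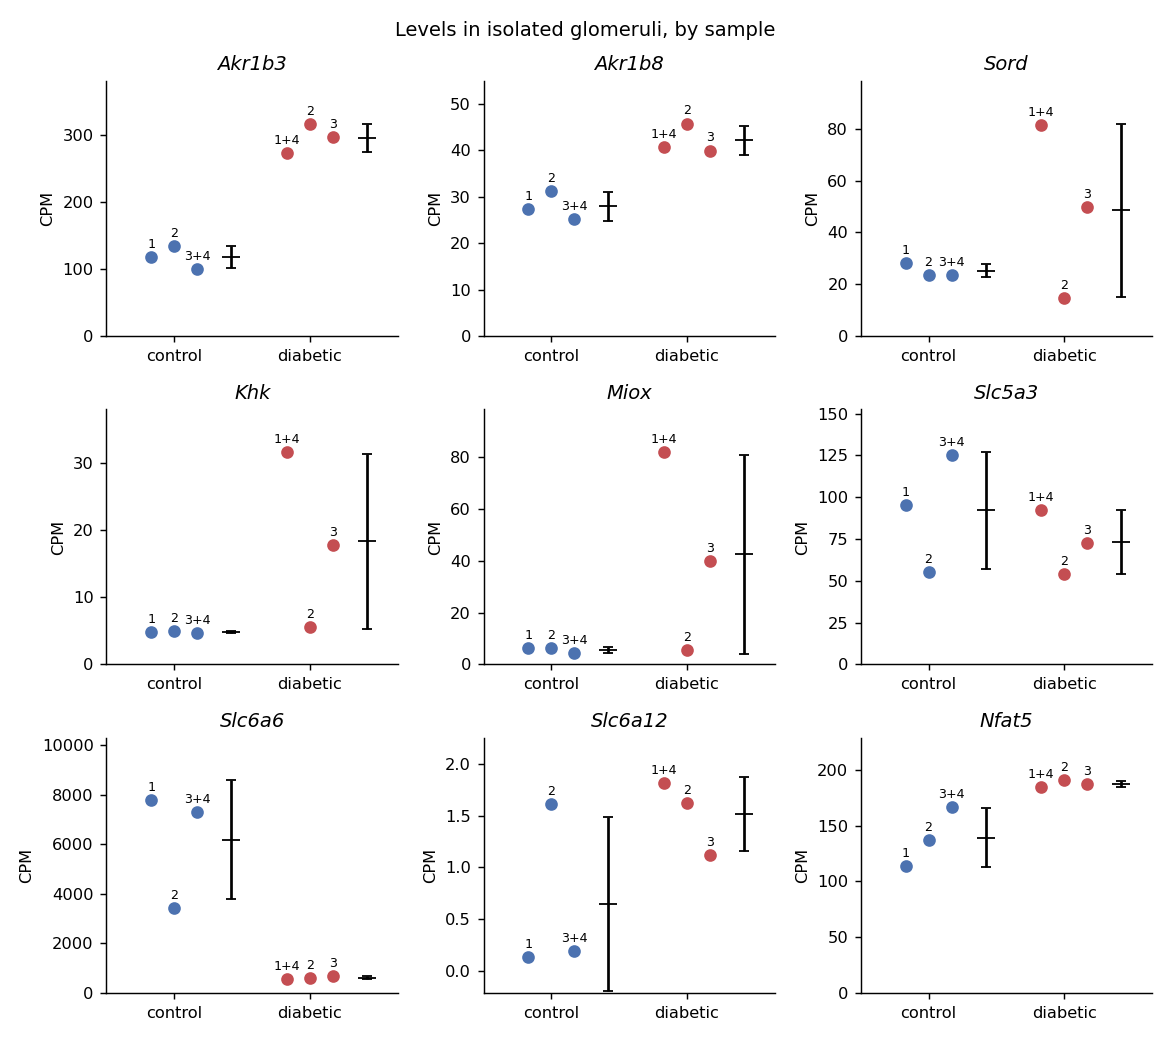
CPM of the 9 genes in isolated glomeruli, one panel per gene, with each point a sample named by its library or summed pair and the black bar the mean ± SD of the 3 samples of a group. Akr1b3 stood at 272.8 to 316 CPM in all 3 diabetic samples, above all controls, and Slc6a6 far below all controls, whereas Khk, Miox and Sord were high only in diabetic samples 1+4 and 3.

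Akr1b3, the aldose reductase of the mouse (GRCm38 chromosome 6, 34302434 to 34317478, minus strand), was at 118, 134 and 100.5 CPM in control glomerular samples 1, 2 and 3+4. In diabetic samples 1+4, 2 and 3 it was at 272.8, 316 and 296.7 CPM. Every diabetic sample lay above every control, and sample 2, with the fewest proximal tubule markers of the 3, was the highest. The mean rose from 117 ± 16.5 to 295 ± 21.5 CPM (SD, n = 3 each), a log2 fold change of 1.33 ± 0.13 (edgeR adjusted p = 0.000843). Without diabetic libraries 1, 3 and 4 the value was 1.45. The rise above the control mean came to 308, 367 and 346% of the diabetic cortex level in samples 1+4, 2 and 3, while the median over the 20 proximal tubule markers was 3.52, 0.02 and 1.49%. The tables may have counted Akr1b3 over different lengths, as set out below for its FPKM, so its percentages are uncertain. Some other tubule markers were higher in sample 2 than in controls. Thick limb and distal markers (10) were not, at 423 CPM in sample 2 against 338 to 514 CPM in controls. The 7 medulla and thin limb markers summed to 116 to 185 CPM in controls and to 462, 507 and 367 CPM in diabetic samples 1+4, 2 and 3, with 4 of 6 tested called higher and none at 0 in any sample. Of these, Slc4a11 had most of the gain (4.40 ± 3.48 against 252 ± 60.0 CPM). Collecting duct markers (10) summed to 5.6 to 6.5 CPM in controls and to 118.5, 24.3 and 79.7 CPM in the diabetic samples. The part of these cells in the level of Akr1b3 was not tested.

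Akr1b8, an aldo-keto reductase of the same family that reduces lipid-derived aldehydes, lies beside Akr1b3 on chromosome 6 (34354119 to 34368463, plus strand). It was at 27.4, 31.3 and 25.1 CPM in control glomeruli, whereas diabetic samples 1+4, 2 and 3 had 40.7, 45.8 and 39.96 CPM. The groups did not overlap, and the log2 fold change was 0.59 ± 0.11 (edgeR adjusted p = 0.00696). The paralogs of this cluster share sequence, which bears on how reads were assigned. In the GENCODE M21 transcripts, the coding sequences of Akr1b3 and Akr1b8 were identical at 72.5% of 944 aligned bases, with a longest identical run of 24 bases, whereas those of Akr1b8 and Akr1b10 were identical at 85.4% of 946 bases, with a run of 80. The 2 runs are printed here from the coding strand to show how much longer a stretch Akr1b8 has in common with Akr1b10 than with Akr1b3.
Akr1b3 and Akr1b8: ctcttcattgtcagcaagctgtgg
Akr1b8 and Akr1b10: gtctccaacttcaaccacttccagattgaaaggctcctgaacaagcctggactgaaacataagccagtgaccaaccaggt
A read inside the longer run does not tell Akr1b8 from Akr1b10, so the level of Akr1b8 is uncertain to that extent. Akr1b10 itself went from 20.8 ± 0.668 to 24.6 ± 2.25 CPM in glomeruli and was not called (0.24 ± 0.10, edgeR adjusted p = 0.101). Akr1b7, another aldose reductase-like gene of the cluster, was near 1 CPM in control glomeruli (1.05 ± 0.171) and at 1.60 ± 0.833 CPM in diabetic ones (edgeR adjusted p = 0.335).

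Sord, which encodes sorbitol dehydrogenase, the second enzyme of the polyol pathway (chromosome 2, 122234749 to 122265340), was at 28.1, 23.7 and 23.7 CPM in control glomeruli. Diabetic samples 1+4, 2 and 3 stood at 81.3, 14.5 and 49.9 CPM. Diabetic sample 2 lay below all controls and the other two above them, so the groups overlapped (0.95 ± 0.54, edgeR adjusted p = 0.206). Without diabetic sample 2 Sord was called higher (1.40, edgeR adjusted p = 0.00798), and without diabetic libraries 1, 3 and 4 its value was -0.76.

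Khk, ketohexokinase, the entry of fructose into metabolism (chromosome 5, 30921431 to 30931248), was at 4.81, 5.00 and 4.64 CPM in control glomeruli, whereas diabetic samples 1+4, 2 and 3 had 31.7, 5.55 and 17.8 CPM. The log2 fold change was 1.93 ± 0.56 (edgeR adjusted p = 0.0359). Sample 2 stood only slightly above the controls, and without diabetic libraries 1, 3 and 4 the value was 0.23. The call was lost when control sample 1, 2 or 3+4 or diabetic sample 1+4 or 3 was left out (edgeR adjusted p = 0.0696 to 0.108).

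Miox, myo-inositol oxygenase, which opens the inositol ring to form glucuronate and is a proximal tubule enzyme (chromosome 15, 89334398 to 89337015), was at 6.18, 6.43 and 4.44 CPM in control glomeruli. Diabetic samples 1+4, 2 and 3 were at 82.1, 5.55 and 40.1 CPM. Sample 2 lay inside the control range. The log2 fold change was 2.92 ± 0.85 (edgeR adjusted p = 0.0361), and it was -0.00 without diabetic libraries 1, 3 and 4. Leaving out control sample 1, 2 or 3+4 or diabetic sample 1+4 or 3 ended the call, with the largest fall in value when 1+4 was left out (2.04).

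In Sord, Khk and Miox the differences from the control mean were small against the cortex level, and samples 1+4, 3 and 2 stood in the same order as in the proximal tubule markers. Above the control mean, Miox in samples 1+4, 2 and 3 had gained 7.26, -0.02 and 3.22% of its level in diabetic cortex. Khk had gained 3.75, 0.08 and 1.79%, and Sord 4.11, -0.78 and 1.78%. Over the 20 proximal tubule markers the same quantity ranged from 0.297 to 15.4% in sample 1+4, from -0.30 to 3.45% in sample 2 and from 0.0852 to 5.29% in sample 3. All 3 genes lay inside those ranges except Sord in sample 2. Of the 20 markers, 15 were called higher in diabetic glomeruli and 0 lower by edgeR, with a median log2 fold change of 3.19, and no marker was at 0 in any glomerular sample. The part of tubule RNA in these results was not tested. In bulk RNA, fewer cells of a type and less RNA per cell cannot be told apart.

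**Figure D2:**
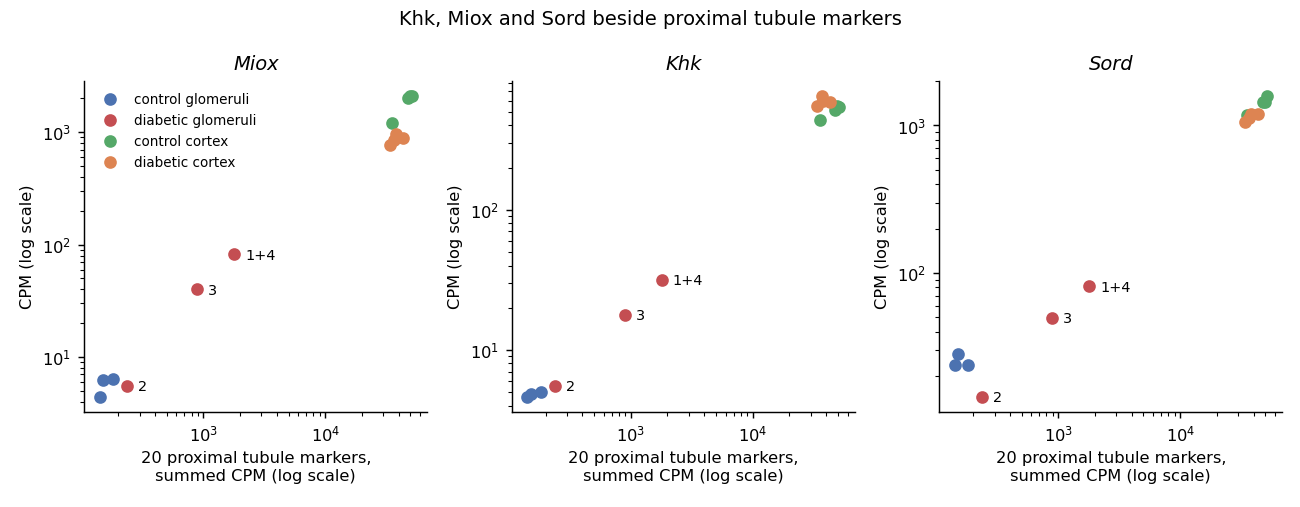
CPM of Miox, Khk and Sord (log scale) against the summed CPM of 20 proximal tubule markers (log scale) in the 6 glomerular and 8 cortex samples, with the 3 diabetic glomerular samples named. Diabetic samples 3 and 1+4 sit between the other glomeruli and the cortex on both axes, and diabetic sample 2 beside the controls.

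Khk and Miox share letters in their promoters that are printed here because the 2 genes moved together across the glomerular samples. RefSeq promoter windows on GRCm38.p6 (250 bases before to 50 after the start) were at hand for 7 of the 9 genes, 11 windows in all, 5 of them of Slc6a12. They were searched on both strands for 7 motifs, and shares are of 32817 windows of the same length. Among these were the TonE consensus bound by NFAT5 (in 4.95% of windows) and its core TGGAAA, which overlaps it (21.4%). GTTAAT is the repeat unit of the site bound by HNF1, a factor of proximal tubule genes (7.1%), and CAAAGT is part of the HNF4 site (14.4%). The others were the E-box CACGTG (7.15%), the antioxidant response core TGACNNNGC (12.4%) and the AP-1 letters TGANTCA (7.81%). GTTAAT lay 60 to 55 bases before the RefSeq start of Khk on its own strand. In Miox it lay 142 to 137 bases before the RefSeq start on the other strand, where it reads ATTAAC. These RefSeq starts lie downstream of the first base of each gene given above. The Khk match thus lies inside the gene as given above, and the Miox match before it. Both matches are in capitals below, at chr5:30921487-30921516 and chr15:89334313-89334397 on the plus strand.
Khk: tcacgtgacaccGTTAATctggcgcggggg
Miox: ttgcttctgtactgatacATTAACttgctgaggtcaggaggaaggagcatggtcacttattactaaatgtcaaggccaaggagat
Khk also held CACGTG and Miox TGACNNNGC. Akr1b8 held GTTAAT after its start and CAAAGT before it, although its diabetic glomerular samples did not stand in the order of Khk and Miox. Sord, whose samples did, held none of the 7 motifs in its window, and neither did Slc5a3 and Nfat5. A match is a description of letters and not a bound site.

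Slc6a6, the taurine transporter TauT (chromosome 6, 91684053 to 91759066), had the largest fitted change of the 9 genes in glomeruli, and it fell. Control samples 1, 2 and 3+4 were at 7803, 3421 and 7308 CPM. Diabetic samples 1+4, 2 and 3 were at 563, 617 and 677 CPM. The lowest control, sample 2, was still far above the highest diabetic sample, and the diabetic samples differed little from each other. The log2 fold change was -3.32 ± 0.33 (edgeR adjusted p = 0.00102). In control glomerular libraries Slc6a6 alone made up 0.323 to 0.715% of all counts and ranked between 6 and 22 among genes. In diabetic libraries it made up 0.060 to 0.070% and ranked between 123 and 152. The value lay between -3.62 and -3.03 under 17 other settings and was called under each. Of 8 mesangial and smooth muscle markers, 4 were called lower in the same comparison (Acta2, Tagln, Myh11 and Pdgfrb), Itga8, Gata3, Des and Ren1 were not called, and none was at 0 in any sample. The 8 summed to 17160 to 19605 CPM in controls and to 3363, 3862 and 5992 CPM in diabetic samples 1+4, 2 and 3. Most of that sum was the contractile genes Acta2 (9733 ± 734 CPM in controls) and Tagln (7392 ± 1008 CPM). Podocyte markers (11) summed to 4804 to 6026 CPM in controls and 2319 to 4598 CPM in diabetic samples. The part of either cell type in the fall of Slc6a6 was not tested.

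Slc5a3, the sodium/myo-inositol transporter SMIT1 (chromosome 16, 92058322 to 92087473), was at 95.5, 55.5 and 125 CPM in control and at 92.5, 54.2 and 72.8 CPM in diabetic glomerular samples. The groups overlapped, and the spread within each was wider than the difference between them (-0.33 ± 0.32, edgeR adjusted p = 0.447). Its gene overlaps Mrps6, a mitochondrial ribosomal protein gene, on the same strand, and 159 of the 10913 exonic bases of Slc5a3 (1.46%) and of the 1533 of Mrps6 (10.4%) are shared. Mrps6 was called lower in diabetic glomeruli, at 66.1 ± 20.4 against 37.8 ± 1.81 CPM (-0.81 ± 0.22, edgeR adjusted p = 0.0268). How reads of the shared bases were assigned is not stated in the sources used here.

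Slc6a12, the betaine/GABA transporter BGT1 (chromosome 6, 121343076 to 121365775), had few counts in all glomerular samples. Control samples 1, 2 and 3+4 had 5, 61 and 15 counts, and diabetic samples 1+4, 2 and 3 had 148, 71 and 47. In CPM these were 0.134, 1.61 and 0.191 against 1.81, 1.62 and 1.12. Control sample 2 lay within the diabetic range, and the gene was not called (1.27 ± 0.89, edgeR adjusted p = 0.298). Without control sample 2 it was called higher (3.16, edgeR adjusted p = 0.00471). Slc6a12 is a textbook target of NFAT5, and of the promoter windows of the 7 genes searched only its first window held the TonE consensus. The match lay 75 to 65 bases before the RefSeq start of that window. The whole window, which ends at 121342623, lies upstream of the gene position given above. Windows 2 to 5 of Slc6a12 held no TonE match. The stretch around the match is printed with the core in capitals, from chr6:121342414-121342543 on the plus strand.
Slc6a12: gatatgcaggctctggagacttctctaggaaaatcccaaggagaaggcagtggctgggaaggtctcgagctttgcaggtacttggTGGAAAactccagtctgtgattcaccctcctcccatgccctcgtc
The first window also held TGANTCA once.

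Nfat5 itself (chromosome 8, 107293470 to 107379517) was at 114, 137 and 167 CPM in control and at 185, 191 and 187 CPM in diabetic glomerular samples. All diabetic samples lay above all controls and within a narrow range. The difference just missed the threshold by edgeR (0.43 ± 0.14, adjusted p = 0.0512). It passed with DESeq2 (0.42, adjusted p = 0.0331), under scaling by library totals (0.61, edgeR adjusted p = 0.0207) and on log2(FPKM + 1) with limma (0.56, adjusted p = 0.0171). The median of all genes tested was 0.20 with library totals and 0.13 on log2(FPKM + 1). Of 17 alternative settings, 8 called Nfat5 higher and 9 did not, with values from 0.29 to 0.62.

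In renal cortex, diabetes went with fewer calls among these genes. Akr1b8 was called higher and Miox lower, and the other 7 did not pass. Of 19228 genes tested in cortex, 10.8% were called higher and 9.29% lower. Only Miox had groups that did not overlap, against 24.9% of all genes tested. The median log2 fold change of the 9 was -0.31, beside -0.00 for all genes. It was 0.05 without control library 4, -0.14 without control library 3 and -0.0026 without both.

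**Figure D3:**
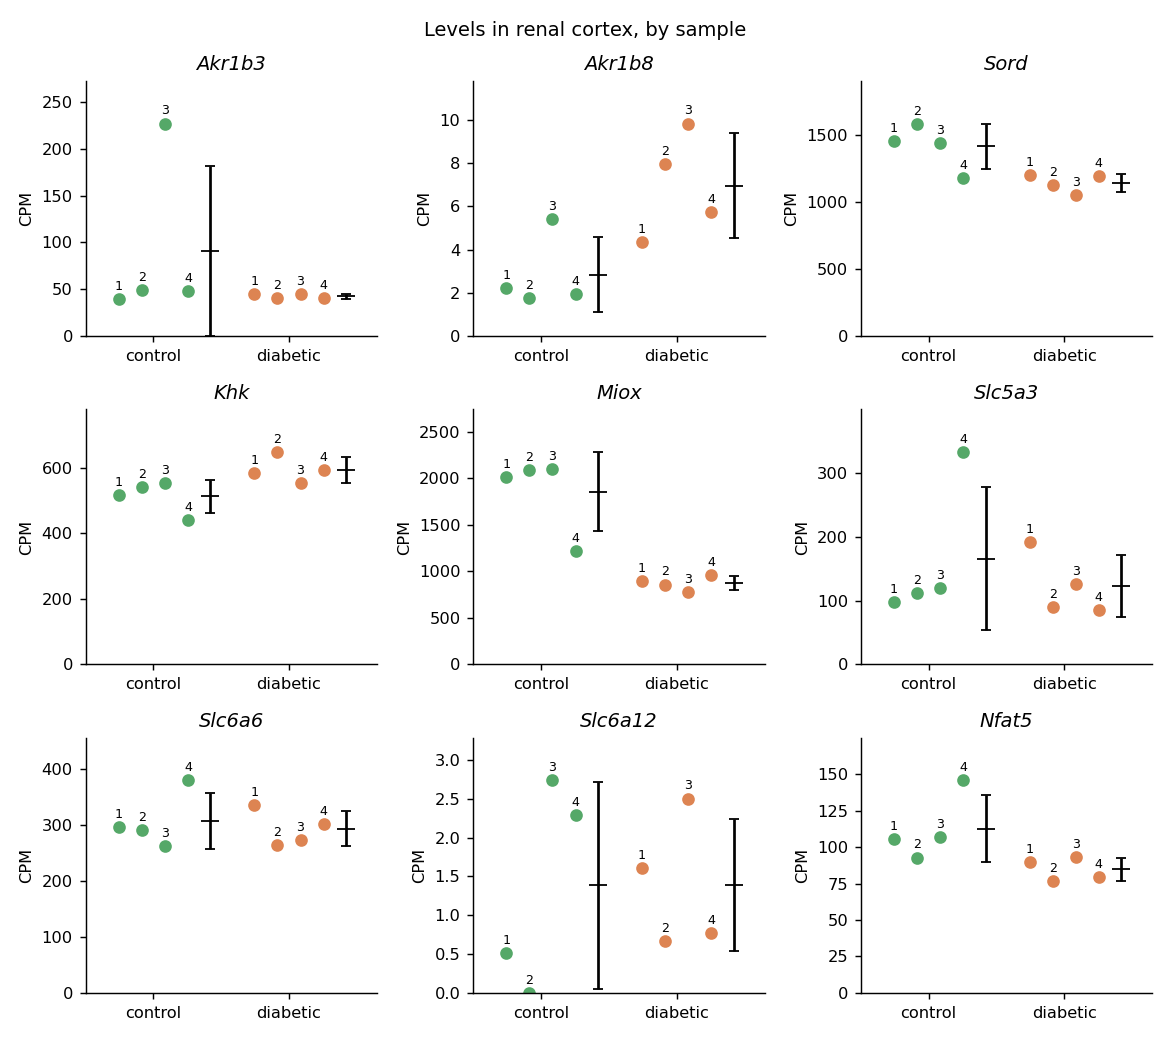
CPM of the 9 genes in renal cortex, one panel per gene, with each point a library named by its number and the black bar the mean ± SD of the 4 libraries of a group. Miox fell in every diabetic library, and control library 3 stands apart for Akr1b3 and Akr1b8 and control library 4 for Slc5a3 and Miox.

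Miox ranked between 37 and 61 among genes by count in control cortex libraries and between 80 and 105 in diabetic ones. It was at 2008, 2092, 2102 and 1218 CPM in control libraries 1 to 4. Diabetic libraries 1 to 4 stood at 892, 858, 778 and 961 CPM. Control library 4 was well below the other controls and still above every diabetic library. The mean fell from 1855 ± 427 to 872 ± 75.8 CPM (n = 4 each), a log2 fold change of -1.09 ± 0.16 (edgeR adjusted p = 0.00216), and without control libraries 3 and 4 it was -1.23 (edgeR adjusted p = 0.000106). In share of all counts, Miox went from 0.127 to 0.205% in control libraries to 0.082 to 0.096% in diabetic ones. The summed proximal tubule markers were 35523 to 51402 CPM in control and 33881 to 43435 CPM in diabetic cortex, with 9 of 20 called lower and 1 higher, and none was at 0. Miox amounted to 3.43 to 4.26% of that sum in control and 2.05 to 2.53% in diabetic libraries, so the groups did not overlap on this scale either. Thus Miox was called higher in diabetic glomeruli and lower in diabetic cortex. Acsm2 and some other proximal tubule markers were called in the same 2 directions. The glomerular value of Miox was -0.00 without diabetic glomerular libraries 1, 3 and 4.

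Sord, at 1453, 1583, 1440 and 1177 CPM in control and 1201, 1125, 1050 and 1189 CPM in diabetic cortex, was lower in all diabetic libraries than in control libraries 1 to 3, but control library 4 lay among them. It missed the threshold (-0.31 ± 0.10, edgeR adjusted p = 0.0528). Without control library 4 it was called lower (-0.39, edgeR adjusted p = 0.00290). As a share of the summed proximal tubule markers it was 2.92 to 3.31% in control and 2.76 to 3.13% in diabetic libraries, which overlapped. Khk was at 516, 541, 554 and 440 CPM in control and at 583, 648, 553 and 594 CPM in diabetic cortex. Its groups overlapped only through control library 3 and diabetic library 3, and it did not pass (0.21 ± 0.09, edgeR adjusted p = 0.117). Against the summed proximal tubule markers it stood at 1.05 to 1.24% in control and 1.34 to 1.76% in diabetic libraries, with no overlap. The 2 proximal tubule enzymes of fructose formation and use therefore had point values on opposite sides of 0, neither of them called.

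Akr1b8 was low in cortex, at 2.21, 1.74, 5.42 and 1.95 CPM in control libraries 1 to 4 and 4.33, 7.96, 9.83 and 5.71 CPM in diabetic ones. Control library 3 lay within the diabetic range, and the 3 other controls lay below every diabetic library. The log2 fold change was 1.29 ± 0.40 (edgeR adjusted p = 0.0479). The call was lost when control library 1, 2 or 4 or diabetic library 2, 3 or 4 was left out (edgeR adjusted p = 0.0765 to 0.125). It was kept without control libraries 3 and 4. Macrophage and myeloid markers (10) rose in the same libraries, from 270 to 455 CPM in control to 654 to 991 CPM in diabetic cortex, with 9 of 10 called higher and none at 0. Their part in the result was not tested.

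Akr1b3 showed no call in cortex, and its control mean rested on 1 library. Control libraries 1 to 4 were at 39.95, 49.2, 226.9 and 47.9 CPM, and diabetic libraries at 44.6, 40.1, 45.2 and 40.1 CPM. Apart from control library 3 all libraries lay between 39.95 and 49.2 CPM. The log2 fold change was -1.10 ± 0.59 (edgeR adjusted p = 0.243) and -0.11 without control library 3 (edgeR adjusted p = 0.470). That library had 46.9 CPM of Ucp1, the uncoupling protein of brown fat, and 18.1 CPM of Adipoq, the adipocyte hormone adiponectin, genes that had no count in the 3 other control libraries. Its 9 adipocyte markers summed to 273.9 CPM, against 20.9 to 29.7 CPM in the other controls, where 6 or 7 of the 9 were at 0, and 38.9 to 45.5 CPM in diabetic cortex. Outside control library 3 most of that sum was Fabp4. It was at 20.6 to 29.3 CPM in the other controls and 37.6 to 45.1 CPM in diabetic cortex. This marker list was chosen after these values were seen. The part of adipose tissue in the high Akr1b3 level was not tested.

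Slc5a3 was at 97.4, 112, 120 and 333 CPM in control and at 191, 90.7, 127 and 86.0 CPM in diabetic cortex, and did not pass (-0.42 ± 0.46, edgeR adjusted p = 0.576). Without control library 4 the sign turned (0.17, edgeR adjusted p = 0.745). That library also had the most Slc14a2, the urea transporter of the inner medulla (100.3 CPM, against 0 to 36.3 CPM in the other cortex libraries). Its 7 medulla and thin limb markers summed to 282 CPM, against 86.1 to 149 CPM in the other controls and 79.1 to 143.5 CPM in diabetic cortex. The part of medullary tissue in this value was not tested. Mrps6, by contrast, was level between groups (39.5 ± 12.1 and 40.5 ± 4.05 CPM), with its highest value, 57.6 CPM, in the same control library 4.

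**Figure D4:**
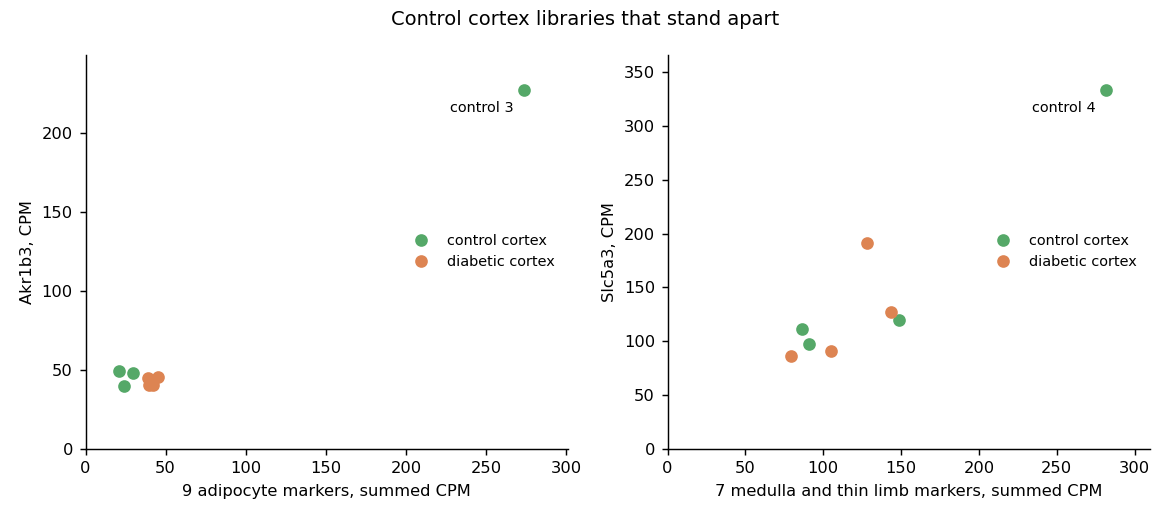
Left, CPM of Akr1b3 against the summed CPM of 9 adipocyte markers, and right, CPM of Slc5a3 against the summed CPM of 7 medulla and thin limb markers, in the 8 cortex libraries. Control library 3 stands alone at the upper right on the left panel and control library 4 on the right panel.

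The remaining osmolyte genes gave no call in cortex. Slc6a6, at 297, 292, 263 and 380 CPM in control and 336, 265, 274 and 301 CPM in diabetic libraries, had groups that overlapped almost fully (-0.07 ± 0.12, edgeR adjusted p = 0.738). Slc6a12 had 30, 0, 187 and 162 counts in control and 114, 48, 160 and 48 counts in diabetic libraries (-0.00 ± 1.01, edgeR adjusted p = 0.999). The count of 0 in control library 2 allows up to 0.0555 CPM (3 counts, for counting error only). Nfat5 was at 105, 92.8, 107 and 146 CPM in control and at 89.8, 77.0, 93.3 and 79.2 CPM in diabetic cortex (-0.41 ± 0.13, edgeR adjusted p = 0.0521). The groups overlapped only through control library 2 and diabetic library 3. DESeq2 called it lower (-0.41, adjusted p = 0.0176), as did edgeR without control library 2 (-0.49, adjusted p = 0.0289) or 4 (-0.26, adjusted p = 0.0382). These were 3 of 17 alternative settings, and the other 14 gave no call, with all values between -0.49 and -0.23.

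Whether diabetes acted differently in the 2 tissues was tested directly, in 1 model of all 4 groups. The effect in glomeruli was called above that in cortex for Akr1b3, Khk, Miox and Nfat5 and below it for Slc6a6. Of the 16485 genes tested, 18.8% were called above and 16.2% below. Miox had the largest difference of effects (4.03 ± 0.84, edgeR adjusted p = 0.00295). Leaving out diabetic glomerular libraries 1, 3 and 4 brought it to 1.03. The difference for Slc6a6 was -3.26 ± 0.34 (edgeR adjusted p = 1.32e-05), and it lay between -3.56 and -3.06 under all 22 other settings. For Akr1b3 it was 2.43 ± 0.70 (edgeR adjusted p = 0.0171), and 1.44 without control cortex library 3 (edgeR adjusted p = 2.02e-05). Without diabetic glomerular libraries 1, 3 and 4, which left 1 diabetic glomerular sample, it was 2.49 and not called. For Nfat5 it was 0.84 ± 0.21 (edgeR adjusted p = 0.00826), with an upward point value in glomeruli and a downward one in cortex, neither of which passed alone. Without diabetic glomerular libraries 1, 3 and 4 it was 0.82 and not called. The difference for Khk (1.74 ± 0.55, edgeR adjusted p = 0.0261) became -0.05 without diabetic glomerular libraries 1, 3 and 4. It missed the threshold without any one of the control glomerular samples or without diabetic sample 1+4 (edgeR adjusted p = 0.0530 to 0.0776). Akr1b8 (-0.69 ± 0.49), Sord (1.28 ± 0.54), Slc5a3 (0.09 ± 0.64) and Slc6a12 (1.30 ± 1.53) did not pass. Akr1b8 was called in 2 of 22 other settings and not in 20, with values from -1.22 to -0.48. Sord was called in 3 of 22 and not in 19, with values from -0.52 to 1.71.

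**Figure D5:**
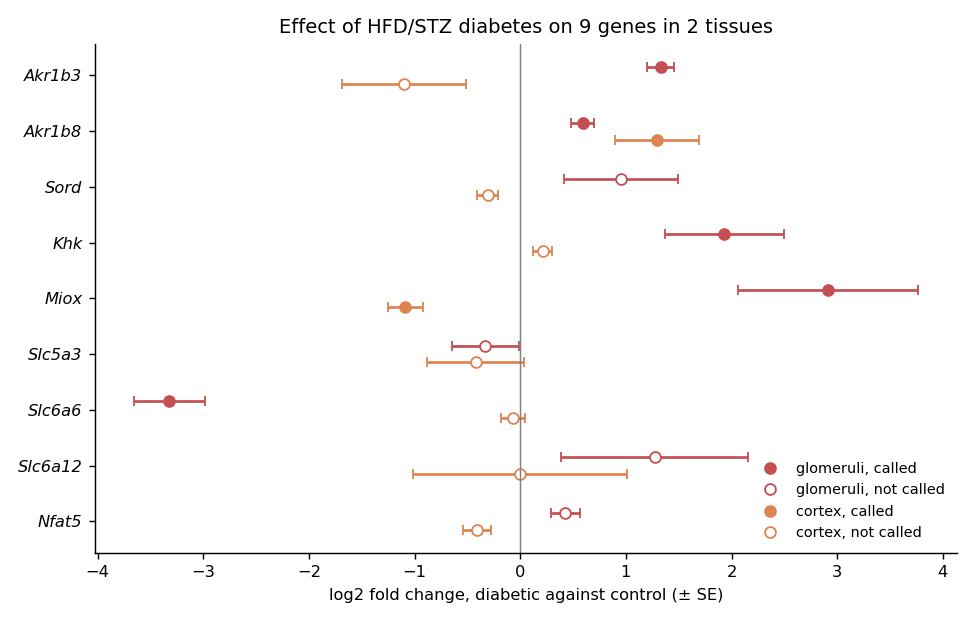
Log2 fold change of diabetic against control samples ± SE for the 9 genes in glomeruli and cortex, with filled circles for genes called at an adjusted p under 0.05 by edgeR and open circles for the others. Miox is called in opposite directions in the 2 tissues, and the fall of Slc6a6 in glomeruli (-3.32) has no counterpart in cortex (-0.07).

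In the control mice the genes were split between the tissues. Akr1b8 and Slc6a6 were called higher in control glomeruli than in control cortex, and Sord, Khk, Miox and Slc5a3 lower, where 38.7% of all genes tested were called higher and 39.7% lower. The tables carry different identifiers and numbers of genes, and a gene may have been counted over different exons in them. Miox (-8.66 ± 0.84), Khk (-7.04 ± 0.52) and Sord (-6.12 ± 0.50) were lower in glomeruli, as were all 20 proximal tubule markers (median -9.02). Slc6a6 (4.03 ± 0.25) and Akr1b8 (2.99 ± 0.36) were higher. Slc5a3 was lower by a smaller margin (-1.14 ± 0.46, edgeR adjusted p = 0.0390), and the call was lost without control cortex library 4 (-0.53, edgeR adjusted p = 0.186). Akr1b3 showed no difference (0.06 ± 0.49, edgeR adjusted p = 0.911), but was called higher in glomeruli without control cortex library 3 (1.05, edgeR adjusted p = 1.29e-06). Nfat5 (0.01 ± 0.15) and Slc6a12 (-1.47 ± 1.13) did not pass.

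Per unit of length, in the authors' FPKM, the order of the 9 genes changed with tissue and diabetes. In control glomeruli Slc6a6 led at 741 ± 282.5 FPKM, followed by Akr1b3 at 78.4 ± 11.0 and Akr1b8 at 19.7 ± 2.24, and these ranges were apart from each other. Below them came Sord, Slc5a3, Nfat5 and Miox (10.4 to 5.08 FPKM), of which each of the first 3 overlapped the next in rank, and Khk (2.60) and Slc6a12 (0.200) came last. In diabetic glomeruli Akr1b3 came first at 224 ± 16.2 FPKM and Slc6a6 second at 84.5 ± 6.07, with ranges apart. The range of Slc6a6 overlapped that of Miox (43.5 ± 39.8 FPKM), which spanned 5.70 to 84.9. In control cortex Miox (1020 ± 206 FPKM), Sord (547 ± 44.1) and Khk (260 ± 17.7) led, each apart from the next, and Slc6a6 came next at 33.4 ± 6.84. In diabetic cortex Miox (495 ± 32.5) and Sord (454 ± 13.9) overlapped, and Khk stood at 310 ± 23.1 FPKM. Akr1b3 was at 4.75 ± 0.361 FPKM in diabetic cortex, but its FPKM cannot be set side by side across the tables. It had 1.41 CPM per FPKM in the glomerular and 9.15 in the cortex table, a quantity that grows with the gene length used, and its rank depends on that length. For Miox this quantity was 1.05 and 1.80, and for the other members it differed less.

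Other genes of these pathways were examined as lists. Of the 17 such genes that were called in glomeruli and picked by adjusted p, 8 stayed called whichever single sample was left out. Fits without diabetic libraries 1, 3 and 4 leave 1 diabetic sample, so only their values are given for these genes. The lists are described in turn, with medians set beside those of all genes tested (0.01 in glomeruli and -0.00 in cortex). Among 11 relatives of fructose and polyol metabolism, 2 were called higher and 2 lower in diabetic glomeruli, with a median log2 fold change of 0.56. Slc2a5, the fructose transporter GLUT5, was among the higher ones. Slc2a5 was at 0.0537 to 0.132 CPM in control samples and 0.251 to 5.59 CPM in diabetic ones. Its log2 fold change was 4.94, and 1.45 without diabetic libraries 1, 3 and 4. The call was lost without control sample 1 or 3+4. Slc2a8, the intracellular sugar transporter GLUT8, fell from 15.7 ± 1.08 to 8.92 ± 1.18 CPM (-0.81 ± 0.14, edgeR adjusted p = 0.00544), and the other gene called lower was Fn3krp. In cortex Tkfc, the triokinase that phosphorylates glyceraldehyde from fructose, rose by 0.25 ± 0.06 (edgeR adjusted p = 0.0170, lost without control library 1 or diabetic library 2 or 4, 0.0511 to 0.0593). Glyctk, glycerate kinase, fell from 255 ± 18.7 to 175 ± 18.8 CPM (-0.54 ± 0.09, edgeR adjusted p = 0.00272). Over the 11 genes the median in cortex was -0.05.

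Of 9 genes of inositol synthesis, transport and breakdown, 3 were called higher and 0 lower by edgeR in diabetic glomeruli (median 0.50). Slc5a11, the second sodium/myo-inositol transporter, was at 0.0269 to 0.0794 CPM in control and 0.320 to 4.31 CPM in diabetic samples. Xylb and Dcxr act on xylulose downstream of glucuronate, the product of Miox. Xylb was at 1.98 to 2.71 and 5.30 to 23.4 CPM and Dcxr at 15.4 ± 2.95 and 21.7 ± 2.09 CPM. The log2 fold changes of Slc5a11, Xylb and Dcxr were 5.28, 2.53 and 0.50. Without diabetic libraries 1, 3 and 4 they were 2.58, 1.16 and 0.36. The call on Dcxr was lost in 5 fits that left out a single sample. In cortex 0 were called higher and 2 lower by edgeR. Xylb fell from 554 ± 53.9 to 382 ± 39.2 CPM (-0.54 ± 0.10, edgeR adjusted p = 0.00478). Impa1, the phosphatase that releases free inositol, fell from 104 ± 11.6 to 75.4 ± 3.58 CPM (-0.47 ± 0.08, edgeR adjusted p = 0.00403). Both kept the call without control libraries 3 and 4.

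Among 11 genes of betaine, taurine and glycerophosphocholine metabolism, 9 were tested in glomeruli, with 2 called higher and 2 lower (median -0.17). Chdh, the choline dehydrogenase that starts betaine synthesis, rose from 2.05 ± 0.441 to 19.5 ± 9.13 CPM (3.25 ± 0.40, edgeR adjusted p = 0.00191). Without diabetic libraries 1, 3 and 4 its value was 2.33. Cdo1, the cysteine dioxygenase that starts taurine synthesis, fell from 104 ± 60.7 to 7.14 ± 4.38 CPM (-3.84 ± 0.68, edgeR adjusted p = 0.00622). It was at -5.16 without diabetic libraries 1, 3 and 4. Csad, the next enzyme of taurine synthesis, was the other gene called lower. Aldh7a1, which oxidises betaine aldehyde, went from 61.1 ± 5.41 to 84.3 ± 11.7 CPM (0.46 ± 0.13, edgeR adjusted p = 0.0269). The call was lost without control sample 2 or 3+4 or diabetic sample 1+4 or 2. Without diabetic libraries 1, 3 and 4 the value of Aldh7a1 was 0.53. In cortex 1 of 11 was called higher and 0 lower by edgeR (median 0.06). This was Gdpd5, which breaks down glycerophosphocholine, at 5.57 ± 0.387 and 9.24 ± 1.82 CPM (edgeR adjusted p = 0.0104).

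Of 9 other osmolyte transporters and volume channels, 7 were tested in glomeruli, 4 of them called higher and 1 lower (median 0.58). The genes of the LRRC8 family encode subunits of the volume-regulated anion channel, through which swollen cells release osmolytes. Lrrc8b rose from 31.0 ± 2.55 to 64.2 ± 4.77 CPM (1.05 ± 0.10, edgeR adjusted p = 0.000796) and was at 1.19 without diabetic libraries 1, 3 and 4. Lrrc8d (0.58 ± 0.10) and Lrrc8c (0.42 ± 0.09) rose less, with values of 0.65 and 0.49 without those libraries. The call on Lrrc8c was lost without control sample 3+4. The amino acid transporter gene Slc38a2 was also called higher. Lrrc8a, the subunit every such channel needs, was the one called lower (-0.26 ± 0.07). In cortex 0 were called higher and 3 lower by edgeR (median -0.06): Lrrc8b (-0.39 ± 0.08, edgeR adjusted p = 0.00872) and the proline and betaine transporter genes Slc6a20b (-0.33 ± 0.08) and Slc6a20a (-0.29 ± 0.08). The last 2 calls were each lost when single libraries were left out. Lrrc8b thus was called in opposite directions, and its difference of effects was 1.45 (edgeR adjusted p = 3.26e-06).

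Of 8 other genes described as NFAT5 targets, 3 were called higher and 1 lower in glomeruli (median -0.53). Aqp2, the water channel of the collecting duct, was at 1.38 to 1.72 CPM in control and 1.67 to 30.1 CPM in diabetic samples. Its log2 fold change was 3.31, and 0.10 without diabetic libraries 1, 3 and 4. Aqp2 is itself one of the collecting duct markers given above. Slc14a2 was also called higher. Hspa4l, an osmotic stress chaperone, went from 55.5 ± 10.1 to 79.0 ± 5.78 CPM (0.51 ± 0.15, edgeR adjusted p = 0.0337), and Sgk1, a kinase induced by cell shrinkage, from 463 ± 118 to 272 ± 15.3 CPM (-0.77 ± 0.19, 0.0194). The calls on both were lost in several fits that left out single samples. Without diabetic libraries 1, 3 and 4 their values were 0.56 and -0.78. In cortex 1 was called higher and 0 lower by edgeR (median -0.25), the chemokine gene Ccl2, at 0.257 ± 0.0861 and 4.05 ± 1.23 CPM (3.98 ± 0.32, edgeR adjusted p = 0.000114), beside the myeloid markers given above. Among the 4 calcium-regulated relatives of NFAT5, Nfatc2 rose in glomeruli from 0.702 ± 0.311 to 13.1 ± 1.28 CPM (4.24 ± 0.33, edgeR adjusted p = 0.000544) and was at 4.25 without diabetic libraries 1, 3 and 4. Nfatc4 was called lower there (-0.71 ± 0.20), but not with library totals, nor without control sample 2 or any one of the diabetic samples. In cortex Nfatc1 was called higher (0.44 ± 0.10) and Nfatc3 lower (-0.33 ± 0.07).

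Over the 14 samples of both tissues, the genes most like Miox among 11989 joined genes included Acsm2 (Pearson r of log2 CPM 0.998) and Slc34a1, the sodium/phosphate cotransporter of the proximal tubule (0.997). Those most like Akr1b3 were Abcg1, a cholesterol exporter (0.92), Acaca, acetyl-CoA carboxylase (0.91) and Itm2a (0.89). Those most like Nfat5 were Zfp26 (0.94), Shoc2 (0.94) and Mga (0.94). These points share their tissue and their library, so the values describe levels across 4 groups and carry no test.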

How the data were processed

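RNA of 16 mouse libraries, in 4 groups of 4, was made from 1.3 ug of total RNA with the RNeasy plus and SMARTER mRNA-Seq kits, per the labels' protocols. The authors deposited whole-number read counts per gene symbol for glomeruli. For cortex they deposited estimated counts per Ensembl gene, made whole, since 17.8% of cortex values lay more than 1% off a constant count per FPKM for their gene and 0% of glomerular ones. The authors also deposited FPKM, values scaled by gene length and library size. The submitters' processing notes name GRCm38 and mm10. No source used here names the aligner, counter, annotation or strand setting.

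Groups came from the labels. Gene positions and coding sequences came from GENCODE M21 (GRCm38). Of the glomerular symbols 19765 matched it directly and 293 through synonyms, and 4664 (4.12% of counts) did not match, while 31953 cortex identifiers matched and 2311 (0.32% of counts) did not. Near-identical glomerular libraries were summed, which left 3 samples against 3. Genes were filtered with filterByExpr, scaled by TMM within each tissue and tested with edgeR 4.0.16 in R 4.3.3 (glmQLFit with robust estimation, glmQLFTest, SE as the fold change over the root of F). Differences between tissues came from a model of all 4 groups over the joined genes. Alternatives were other scalings, no filter, DESeq2 1.42.0, limma 3.58.1 on log2(FPKM + 1) or log2(FPKM + 0.1) with FPKM of at least 1 in as many samples as the smaller group, the replicate number as a block, and leaving out libraries. Leaving out control cortex libraries 3 and 4, and the adipocyte and adrenal marker lists, were chosen after the data were seen. The scripts were tested on simulated counts.

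The 9 genes and all lists were chosen with earlier results of these data known. At most 3 called genes per list and tissue were named, those of smallest adjusted p. Fn3krp, Csad, Slc38a2, Lrrc8a and Slc14a2 lie outside that rule and were named after their values were seen. Some genes that the rules select are not reported here. Adrenal cortex markers, 4 of 6 found in glomeruli and 5 in cortex, summed to 2.2 to 6.0 CPM in all samples. Lymphocyte markers summed to 8.70 to 12.0 CPM in control and 33.0 to 101 CPM in diabetic cortex and stayed under 2.4 CPM in glomeruli. Endothelial markers (8) gave 0 calls in either direction by edgeR in either tissue. Thick limb and distal markers (10) summed to 338 to 514 CPM in control glomeruli and to 2329, 423 and 1275.5 CPM in diabetic samples 1+4, 2 and 3. Replicate numbers did not pair the samples.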

Additional observations from a re-analysis of the deposited data

Results flagged for a closer look

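Among the 70 groups of 4 cortex libraries examined, 7 held a library far from the others by Dixon's 95% criterion on the gap to the nearest library, which chance meets in about 1 in 20 groups. In control cortex library 3 these were Akr1b3 at 226.9 CPM and Akr1b8 at 5.42 CPM. In control cortex library 4 they were Miox at 1218 CPM, Slc5a3 at 333 CPM, Xylb at 473.8 CPM and Impa1 at 87.1 CPM. Diabetic cortex library 1 had Gdpd5 at 6.53 CPM.

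The effect of diabetes differed between the tissues for 5 of the 9 genes, as log2 values in glomeruli minus cortex: Akr1b3 by 2.43, Khk by 1.74, Miox by 4.03, Nfat5 by 0.84 and Slc6a6 by -3.26. Of all 16485 genes tested, 18.8% were called higher in glomeruli and 16.2% lower. The median difference of the 9 was 1.28, and -0.05 without diabetic glomerular libraries 1, 3 and 4. Values of Akr1b3, Khk, Miox and Nfat5 without those libraries are given above. Among the pathway genes named, the effect was higher in glomeruli for Slc2a5 (5.15), Glyctk (2.12), Slc5a11 (5.19), Xylb (3.08), Dcxr (0.70), Impa1 (0.36), Chdh (3.37), Aldh7a1 (0.52), Lrrc8b (1.45), Lrrc8d (0.62), Slc6a20b (3.48), Slc6a20a (6.17), Aqp2 (3.33) and Nfatc2 (3.83). It was lower there for Slc2a8 (-0.77), Tkfc (-0.65), Cdo1 (-3.53), Gdpd5 (-0.67) and Ccl2 (-7.34). Each passed the adjusted threshold of 0.05 by edgeR. All 20 proximal tubule markers were also called higher in this comparison, and their part in these differences was not tested. Slc6a20a entered the model of all 4 groups but was not tested in glomeruli alone. Its means in that model were 0.0088 CPM in control and 0.505 CPM in diabetic glomeruli, against 39.2 and 32.0 CPM in cortex. Slc6a20b was tested in glomeruli alone and not called (edgeR adjusted p = 0.0583).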

How the results depend on the processing

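Of the 9 genes, 4 were called higher in diabetic glomeruli. This count was 2 with no filter on low counts, and 2 to 5 when 1 sample was left out. Over all genes tested, higher calls were 2950 of 15238, and 2786 of 24722 with no filter. They numbered 2076 to 2721 when 1 sample was left out. Without diabetic libraries 1, 3 and 4 the median log2 fold change of the 9 went from 0.95 to 0.23. The count of genes called lower there was 1. In cortex the count of higher genes was 1. It was 2 with library totals, 0 with no filter, 2 of 8 tested on log2(FPKM + 1), 2 on log2(FPKM + 0.1), 0 on log2(FPKM + 1) with no filter, and 0 to 1 when 1 library was left out. Over all genes tested in cortex, higher calls were 2069 of 19228, 2326 with library totals and 1967 of 31696 with no filter. They numbered 1420 to 2474 when 1 library was left out. The count of lower genes in cortex was 1. It was 2 with library totals, 3 with DESeq2, 2 without control libraries 3 and 4, 2 on log2(FPKM + 1), 2 on log2(FPKM + 0.1), and 1 to 3 when 1 library was left out. Over all genes tested in cortex, lower calls were 1787 of 19228, 1335 with library totals and 2138 of 31598 with DESeq2. They numbered 1090 to 2241 when 1 library was left out. The count of genes whose effect was higher in glomeruli was 4. Without diabetic glomerular libraries 1, 3 and 4 the median difference of effects of the 9 went from 1.28 to -0.05. The count whose effect was lower went from 1 to 2 without control cortex libraries 3 and 4, and was 1 to 2 when 1 library was left out. Without diabetic glomerular libraries 1, 3 and 4, Sord (-0.76) and Miox (-0.0039) in glomeruli and the difference between tissues for Khk (-0.0496) changed sign. The cause of these changes was not tested.

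With the replicate number as a replicate block, for which the 8 glomerular libraries were kept separate, 6 of the 9 genes were called higher in glomeruli and 1 lower, and 1 higher and 1 lower in cortex. Nfat5 (0.37, edgeR adjusted p = 0.0397) and Slc6a12 (2.22, edgeR adjusted p = 0.0392) were those added, and Nfat5 was also called with the 8 libraries separate and no block. Over all genes, the block fit called 3596 of 15182 higher and 3396 lower in glomeruli. In cortex it called 1389 of 19228 higher and 986 lower. The deviations of same-numbered libraries correlated at 0.11, -0.06, 0.06 and -0.05 in glomeruli and at 0.00, 0.04, 0.02 and -0.10 in cortex, so the numbers did not pair the samples. Over single genes, 1289 values under an alternative kept direction and call, 126 lost the call and 45 gained it. The sign changed in 3 values called under either setting and in 84 called under neither.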
